A study of Mus musculus with 6 samples.

Results

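The genes described are the CDK inhibitors, the D-type cyclins and the kinases they act on. They were taken by name from the deposited gene table: Cdkn1b, Cdkn1c, Cdkn2c, Cdkn2d and Cdkn2a (inhibitors), Ccnd1, Ccnd2 and Ccnd3 (D-type cyclins), and Cdk4 and Cdk6 (kinases). All 10 had a row, out of 55471 gene IDs in the table, and 9 of them were among the 13470 genes tested, which had to average 1 TPM or more. TPM expresses a gene's transcripts, corrected for length, as a share of its library. The libraries were total RNA from sorted mouse haematopoietic stem cells (lineage-negative, Kit-positive, Sca1-positive, CD48-negative, CD150-positive). Every mouse is labelled with the genotype ETV6-RUNX1, a fusion gene known from B-cell precursor leukaemia of children. The uninduced group (n = 3 libraries) carried the fusion gene without doxycycline, and the induced group (n = 3 libraries) had received doxycycline in food for 2 weeks. The comparison asks what induction of the fusion changes in stem cells. The promoter that drives the fusion, the age of the mice and the number of mice behind each library are not given in the sources used here. Doxycycline and the fusion cannot be told apart, since no doxycycline-fed mice without the fusion were analysed here.

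D-type cyclins bind CDK4 or CDK6 in G1 phase, and the active kinases phosphorylate the retinoblastoma family of pocket proteins, which frees E2F factors to switch on genes of DNA replication. INK4 inhibitors, among them p16INK4a from Cdkn2a and the products of Cdkn2c and Cdkn2d, bind CDK4 and CDK6 themselves. Cip/Kip inhibitors, among them p27 (Cdkn1b) and p57 (Cdkn1c), bind cyclin-CDK complexes and block CDK2. Haematopoietic stem cells are mostly quiescent, and p57 and p27 are known for keeping them so, while the level of CDK6 is known to affect how fast they leave quiescence.

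Promoter sequences are shown for 3 genes that went different ways: Cdk4 and Ccnd3, whose transcripts were lower in induced cells, and Cdkn1b, whose transcripts were not. Each is the 250 bases before a RefSeq start on GRCm38.p6, on the strand of the gene. RefSeq windows were matched for 7 of the 10 genes, and none for Ccnd1, Ccnd2 and Cdkn1c. Ccnd3 has another window (chr17:47593217-47593466) that is not printed, and gene-level values do not show which start these cells used. Capitals mark E2F words (TTCCCGC and the variants TTCGCGC, then TTGCCGC and also TTGGCGC), RUNX words (TGTGGT or TGCGGT, the site read by the RUNX1 part of the fusion), the FoxO word GTAAACA and the E-box CACGTG, the site read by MYC proteins, each searched on both strands. A RUNX word on the opposite strand is printed as ACCACA, and the FoxO word there as TGTTTAC. The E-box was added to the search after the Cdk4 sequence had been seen. None of these words overlapped another in the sequences shown.
Cdk4 (chr10:127063285-127063534, plus strand): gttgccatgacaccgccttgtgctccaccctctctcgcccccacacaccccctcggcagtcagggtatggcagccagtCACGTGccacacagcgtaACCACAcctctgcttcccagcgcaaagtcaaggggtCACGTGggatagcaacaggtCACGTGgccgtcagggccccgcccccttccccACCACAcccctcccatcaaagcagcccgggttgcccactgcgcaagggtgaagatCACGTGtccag
Ccnd3 (chr17:47504801-47505050, plus strand): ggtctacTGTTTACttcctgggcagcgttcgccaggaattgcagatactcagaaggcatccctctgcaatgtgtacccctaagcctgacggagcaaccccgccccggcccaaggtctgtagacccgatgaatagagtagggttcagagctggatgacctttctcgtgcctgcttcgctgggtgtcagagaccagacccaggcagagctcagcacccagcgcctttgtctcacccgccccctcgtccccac
Cdkn1b (chr6:134920151-134920400, plus strand): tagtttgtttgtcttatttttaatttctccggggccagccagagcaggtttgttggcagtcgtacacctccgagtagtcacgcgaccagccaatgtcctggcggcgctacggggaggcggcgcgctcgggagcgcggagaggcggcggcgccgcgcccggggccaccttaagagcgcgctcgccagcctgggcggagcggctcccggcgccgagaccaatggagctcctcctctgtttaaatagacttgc

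The Cdk4 window held 4 E-boxes and 2 RUNX words. Of all 32851 RefSeq windows, 6.02% held an E-box, 7 windows (0.0213%) held 4 or more, and 18.6% held a RUNX word. The printed Ccnd3 window held 1 FoxO word, found in 3.17% of windows, and the Cdkn1b window held none of the words. Among the other windows, Cdkn2c and Cdkn2a each had 1 E2F word (7.89% of windows) and Cdk6 had 1 E-box, while the second Ccnd3 window, the second windows of Cdkn2c and Cdkn2a, and the Cdkn2d window had none. A match describes the letters of the sequence and does not show binding.

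TPM is a share of the library, so its scale was examined before the genes were compared. Nuclear protein-coding genes held 26.6% to 32.9% of the TPM in uninduced and 20.5% to 23.2% in induced libraries, while the short RNA gene Gm23935, chosen after its values were seen, took 3.20% to 17.2% and 19.6% to 28.01%. The median change of all tested genes was -0.35 on the log2(TPM + 1) scale. The changes of the tested inhibitors, cyclins and kinases are therefore also given after median-of-ratios scaling, which divides a library by its median ratio to the average library and brings that median to 0.003. The summed TPM of 12 stem cell markers was 543.5 to 750.2 in uninduced and 652 to 708.9 in induced libraries, with none of them at 0 throughout. On the deposited scale limma called 4 of them higher and 3 lower, and after median-of-ratios scaling 5 higher and 1 lower. The shares over all tested genes were 1.29% higher and 10.2% lower with deposited values, and 2.88% and 3.1% after median-of-ratios scaling. Of 8 lymphoid markers 7 were listed at 0 in all 6 libraries. The summed TPM of 3 progenitor markers (Cd34, Flt3 and Cd48) was 49.1 to 62.9 and 67.1 to 86.9, of 8 myeloid markers 56.6 to 73.7 and 81.2 to 93.2, and of 6 megakaryocyte markers 102.1 to 134.7 and 118.5 to 129.3. Of 4 myeloid markers tested 1, Prtn3, was called higher and 0 lower (2 and 0 after median-of-ratios scaling, with Csf3r). Mpo and Elane were lower in mean without passing (deposited log2 changes -1.10 and -1.15, limma adjusted p 0.173 and 0.155). Of 5 megakaryocyte markers 2 were called higher (Pf4 and Ppbp) and 1 lower (Gp9), and 2 and 0 after median-of-ratios scaling. Of 2 progenitor markers 0 were called in either direction by limma (1 with an unadjusted p under 0.05, and 1 called higher after median-of-ratios scaling). Of 8 erythroid markers 6 were called higher on both scales, and their sum was 54.6 to 60.6 TPM in uninduced and 401.9 to 466.5 TPM in induced libraries. The part of these other cell type markers in the results below was not tested. In bulk samples fewer cells of a type and less RNA per cell cannot be told apart.

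All 3 D-type cyclins and Cdk4 were lower in induced stem cells, to between 0.304 and 0.464 of their uninduced means, while none of the inhibitors and not Cdk6 passed the test. Of the 9 tested genes 4 were called lower and 0 higher by limma at an adjusted p under 0.05, where 10.2% of all tested genes were called lower and 1.29% higher. At an unadjusted p under 0.05 there were the same 4, beside 27.9% of all tested genes. After median-of-ratios scaling 2 of 9, Ccnd2 and Cdk4, were called lower, where 3.1% of all tested genes were (5.98% in either direction), and 5 of 9 had an unadjusted p under 0.05, beside 21.8% of all tested genes. The median change of the 9 genes was -0.55 on the deposited scale and -0.15 after median-of-ratios scaling, beside -0.35 and 0.003 for all tested genes. The groups did not overlap for these 4 genes, and they lay lower in every induced library, as 28.2% of all tested genes did (4.83% lay higher, 33.1% either way).

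**Figure D1:**
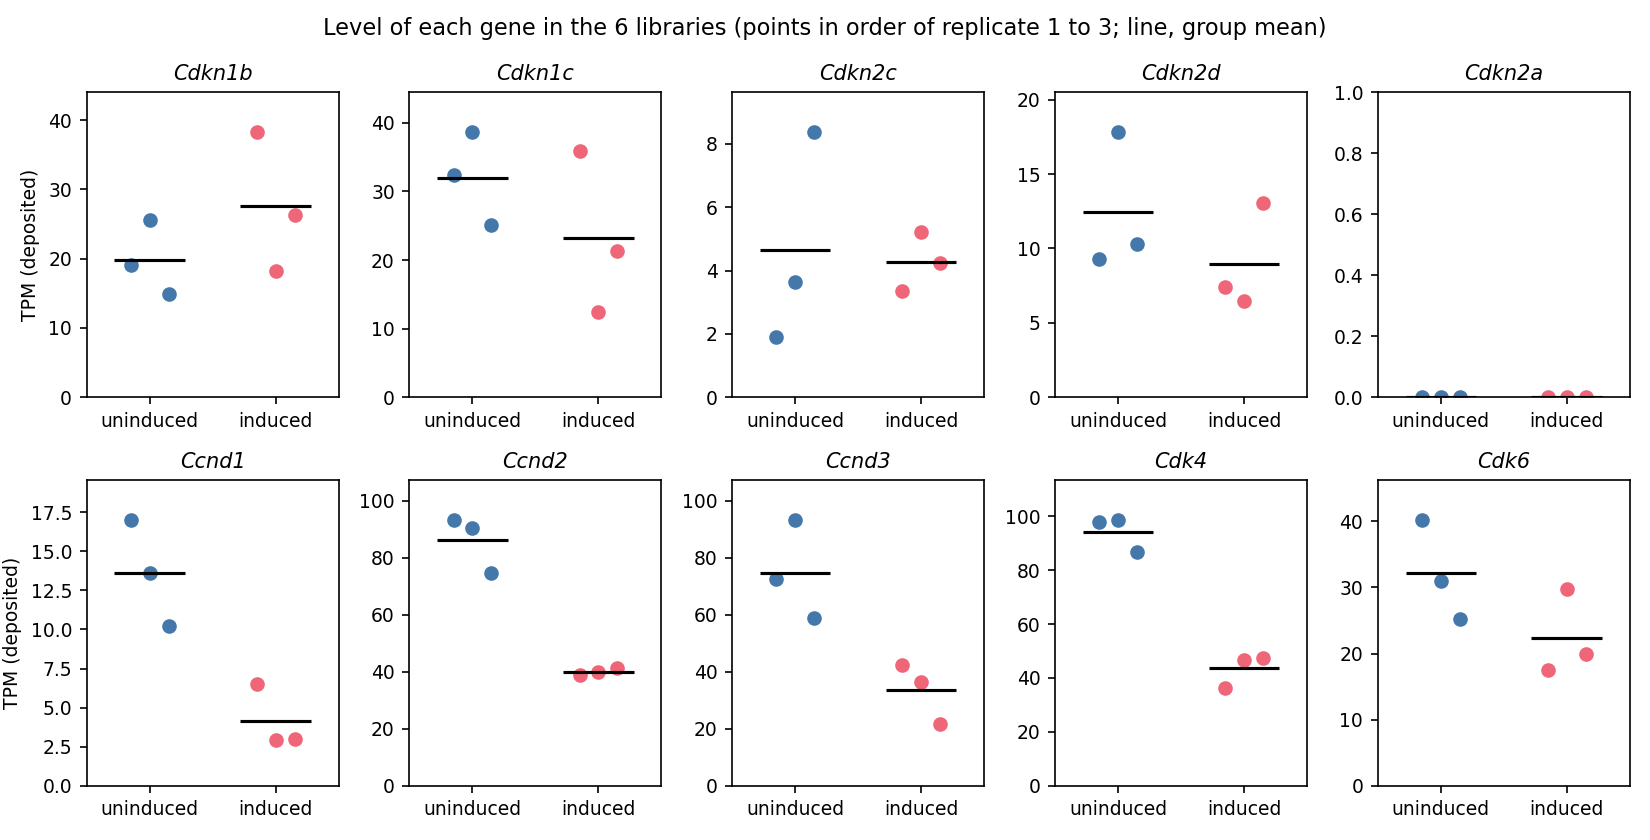
Deposited TPM of each gene (y axis, from 0) in the 3 uninduced (blue) and 3 induced (red) libraries, with a line at each group mean. Ccnd1, Ccnd2, Ccnd3 and Cdk4 do not overlap between groups, the other genes with values above 0 do, and Cdkn2a is at 0 in every library.

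Ccnd2 (ENSMUSG00000000184, GRCm38 chromosome 6, 127125162 to 127152193, minus strand) was the most abundant D-type cyclin on average in both groups. It was at 93.1, 90.4 and 74.5 TPM in uninduced replicates 1, 2 and 3 and at 38.8, 40.0 and 41.1 TPM in the induced replicates. The induced values lay within 1.06 times of each other and all far below the lowest uninduced value. The mean fell from 86.03 ± 10.04 to 39.95 ± 1.19 TPM (SD, n = 3 each). On the log2 scale this is -1.08 with an SE of 0.17 (adjusted p 0.00537 by limma). After median-of-ratios scaling the change was -0.68 (SE 0.14, limma adjusted p 0.0259).

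Ccnd3 (ENSMUSG00000034165, chromosome 17, 47505051 to 47599691, plus strand) was close to Ccnd2 in level. Its values were 72.5, 93.2 and 58.8 TPM in uninduced and 42.5, 36.4 and 21.7 TPM in induced libraries. The groups stayed apart, but induced replicate 3 was far lower than the other two. The mean fell from 74.8 ± 17.3 to 33.5 ± 10.7 TPM (SD, n = 3 each). On the log2 scale this is -1.16 with an SE of 0.27 (adjusted p 0.0252 by limma). After median-of-ratios scaling it was -0.76 (SE 0.27), and the call was lost (limma adjusted p 0.14). It was also lost without uninduced replicate 1 or 2 and without induced replicate 2 or 3, with limma adjusted p of 0.0714 to 0.1.

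Ccnd1 (ENSMUSG00000070348, chromosome 7, 144929931 to 144939925, minus strand) was the least abundant of the D-type cyclins in every library. It was at 17.0, 13.6 and 10.3 TPM in uninduced and at 6.49, 2.92 and 3.00 TPM in induced libraries. Induced replicate 1 was the highest of its group and still below the lowest uninduced library. The mean fell from 13.6 ± 3.37 to 4.13 ± 2.04 TPM (SD, n = 3 each). On the log2 scale this is -1.55 with an SE of 0.35 (adjusted p 0.0227 by limma). After median-of-ratios scaling it was -1.20 (SE 0.34), and the call was lost (limma adjusted p 0.0765). The call was also lost without uninduced replicate 1 or 2 and without induced replicate 2 or 3, with limma adjusted p of 0.079 to 0.0937.

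Cdk4 (ENSMUSG00000006728, chromosome 10, 127063534 to 127067920, plus strand), the kinase partner of the D-type cyclins whose promoter with 4 E-boxes is shown above, had the highest mean of the 10 genes in both groups. It was at 97.8, 98.5 and 86.7 TPM in uninduced and at 36.3, 46.7 and 47.5 TPM in induced libraries. The groups were wide apart, with induced replicate 1 the lowest. The mean fell from 94.3 ± 6.65 to 43.5 ± 6.26 TPM (SD, n = 3 each). On the log2 scale this is -1.11 with an SE of 0.18 (adjusted p 0.00565 by limma). After median-of-ratios scaling it was -0.70 (SE 0.16, limma adjusted p 0.0367).

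Cdk6 (ENSMUSG00000040274, chromosome 5, 3341485 to 3531008, plus strand), which shares the D-type cyclins with CDK4, was at 40.2, 31.0 and 25.2 TPM in uninduced and at 17.4, 29.8 and 19.9 TPM in induced libraries. Induced replicate 2 lay among the uninduced values, so the groups overlapped. The log2 change was -0.51 (SE 0.27, 95% interval -1.11 to 0.08, limma adjusted p 0.243), and -0.12 after median-of-ratios scaling (95% interval -0.72 to 0.48). Cdk6 made up 29.1%, 23.9% and 22.5% of the summed Cdk4 and Cdk6 TPM in uninduced and 32.5%, 38.9% and 29.5% in induced libraries, so the groups did not overlap, by a narrow margin. Whether the 2 kinases changed unequally was not tested.

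**Figure D2:**
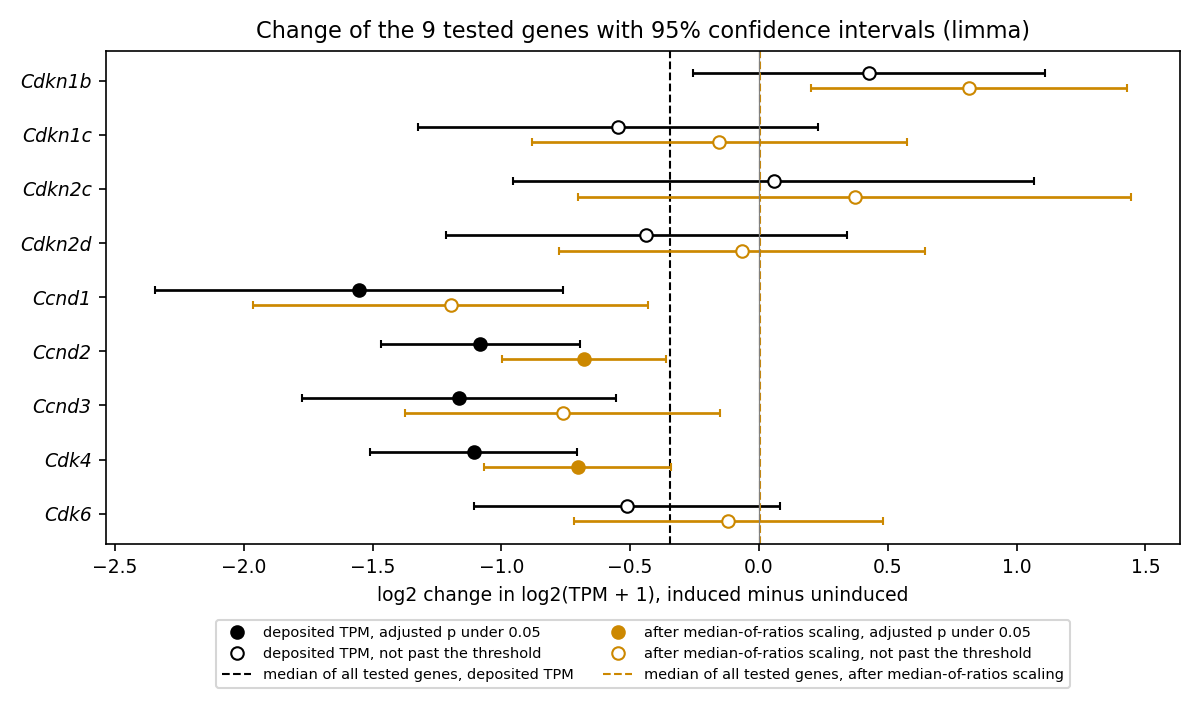
Log2 change of the 9 tested genes (x axis, induced minus uninduced, on the log2(TPM + 1) scale) with 95% confidence intervals from limma, for deposited TPM (black) and after median-of-ratios scaling (orange); filled points passed an adjusted p of 0.05 and dashed lines mark the median of all tested genes, -0.35 and 0.003. Ccnd2 and Cdk4 are filled on both scales, Ccnd1 and Ccnd3 on the deposited scale only, and no inhibitor is filled.

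Among the Cip/Kip inhibitors, Cdkn1b (ENSMUSG00000003031, chromosome 6, 134920401 to 134925513, plus strand), which encodes p27, was at 19.0, 25.5 and 14.9 TPM in uninduced and at 38.3, 18.2 and 26.3 TPM in induced libraries. Induced replicate 2 lay within the uninduced range and induced replicate 1 above all others. The mean was 19.8 ± 5.34 and 27.6 ± 10.1 TPM (SD, n = 3 each). The change was 0.43 on the log2 scale (SE 0.31, 95% interval -0.26 to 1.11, limma adjusted p 0.402). After median-of-ratios scaling the groups no longer overlapped, at 15.9, 20.1 and 14.1 against 43.1, 22.0 and 27.9 scaled TPM. The change there was 0.82 (SE 0.27, 95% interval 0.20 to 1.43, limma p 0.0146), but it did not pass over all genes (adjusted p 0.119). Ranked among all tested genes within each library, which no scaling factor can alter, Cdkn1b stood at percentiles 68.9, 74.5 and 65.0 in uninduced and 89.2, 77.3 and 82.8 in induced libraries. By these ranks Ccnd1, Ccnd2, Ccnd3 and Cdk4 were lower in every induced library. Ccnd1 went from 65.5, 56.7 and 53.8 to 45.7, 27.2 and 25.2, and Ccnd3 from 93.0, 94.5 and 92.1 to 90.4, 89.7 and 78.4. The same genes also stayed apart after median-of-ratios scaling. The share of all tested genes that lie apart in rank or after this scaling was not computed.

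Cdkn1c (ENSMUSG00000037664, chromosome 7, 143458339 to 143461050, minus strand), the imprinted gene of p57, had the highest mean among the inhibitors over the 6 libraries. Its values were 32.3, 38.7 and 25.0 TPM in uninduced and 35.9, 12.4 and 21.3 TPM in induced libraries. The induced libraries spread over 2.89 times and overlapped the uninduced ones. The log2 change was -0.55 (SE 0.35, 95% interval -1.32 to 0.23, limma adjusted p 0.342), and -0.15 after median-of-ratios scaling (95% interval -0.88 to 0.57). Cdkn1c also has the highest GC content of the 10 genes, 63.24% against a median of 46.3% over the tested genes, and the effect of GC content on its values was not tested.

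The INK4 inhibitors were lower in level and did not pass. Cdkn2d (ENSMUSG00000096472, chromosome 9, 21288410 to 21291407, minus strand), which encodes p19INK4d, was at 9.30, 17.8 and 10.3 TPM in uninduced and at 7.39, 6.48 and 13.1 TPM in induced libraries, with overlapping groups. Its log2 change was -0.44 (SE 0.35, 95% interval -1.22 to 0.34, limma adjusted p 0.45), and -0.07 after median-of-ratios scaling (95% interval -0.78 to 0.64). Cdkn2c (ENSMUSG00000028551, chromosome 4, 109660876 to 109667189, minus strand), which encodes p18INK4c, was at 1.90, 3.63 and 8.38 TPM in uninduced and at 3.36, 5.21 and 4.22 TPM in induced libraries. The induced values lay inside the uninduced range, which spread over 4.41 times. The log2 change of 0.06 (SE 0.45, 95% interval -0.96 to 1.07, limma adjusted p 0.95) does not show that the level stayed the same, since the interval allows a change of about 1 log2 unit either way. After median-of-ratios scaling it was 0.37 (95% interval -0.70 to 1.44).

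Cdkn2a (ENSMUSG00000044303, chromosome 4, 89274471 to 89294653, minus strand), whose products p16INK4a and p19ARF are known for rising in senescent and stressed cells, was listed at 0 TPM in all 6 libraries. Cdkn2b, its neighbour and the remaining INK4 gene, was at 0.668 TPM in induced replicate 2 and listed at 0 in the other libraries. A listed 0 has no known depth behind it here. Skp2, a ubiquitin ligase subunit that directs p27 to degradation and is active in dividing cells, was listed at 0 in all 6 libraries too, so a 0 in this table may not mean that the transcript was absent.

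In uninduced cells the order of the mean levels was Cdk4 (94.3 TPM), Ccnd2 (86.03), Ccnd3 (74.8), Cdk6 (32.1), Cdkn1c (32.0), Cdkn1b (19.8), Ccnd1 (13.6), Cdkn2d (12.5), Cdkn2c (4.64) and Cdkn2a at 0. The step from Ccnd3 to Cdk6 separated the libraries of both genes without overlap, and so did the step from Cdkn2d to Cdkn2c. Cdk4, Ccnd2 and Ccnd3 overlapped each other, as did Cdk6 and Cdkn1c, Cdkn1c and Cdkn1b, Cdkn1b and Ccnd1, and Ccnd1 and Cdkn2d. In induced cells Cdkn1b (27.6 TPM) stood above Cdkn1c (23.2) and Cdk6 (22.4), with overlapping libraries. Ccnd1 (4.13) fell to the level of Cdkn2c (4.27), also with overlap.

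The ratio of inhibitors to D-type cyclins within a library does not depend on a scaling factor, while the summed TPM of either group does. The sums are given here on the deposited scale. The summed TPM of the 3 D-type cyclins was 182.6, 197.2 and 143.6 in uninduced and 87.7, 79.3 and 65.8 in induced libraries. The summed TPM of the inhibitors was 62.6, 85.7 and 58.6 in uninduced and 85.0, 42.3 and 64.9 in induced libraries, with overlapping groups. The ratio of inhibitors to D-type cyclins was 0.343, 0.434 and 0.408 in uninduced libraries and 0.969, 0.533 and 0.985 in induced libraries. Every induced library had a higher ratio than every uninduced one, and induced replicate 2, the library with the lowest Cdkn1b and Cdkn1c of its group, was the closest to them. The mean ratio was 0.395 ± 0.0472 and 0.829 ± 0.257 (SD, n = 3 each), and no test was run on these sums because the genes had been chosen as a group.

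Within the D-type cyclins the proportions overlapped between the groups. Ccnd2 took 45.9% to 51.9% of their summed TPM in uninduced and 44.2% to 62.5% in induced libraries, Ccnd3 39.7% to 47.2% and 32.9% to 48.4%, and Ccnd1 6.91% to 9.31% and 3.68% to 7.40%. Within the inhibitors the shares of Cdkn1b and Cdkn1c did not overlap between the groups, which was not tested. Cdkn1b took 30.4%, 29.8% and 25.5% of the summed inhibitor TPM in uninduced and 45.1%, 42.9% and 40.5% in induced libraries. Cdkn1c took 51.7%, 45.2% and 42.7% and then 42.3%, 29.4% and 32.8%, so its highest induced share was just under its lowest uninduced share. The shares of Cdkn2c and Cdkn2d overlapped.

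**Figure D3:**
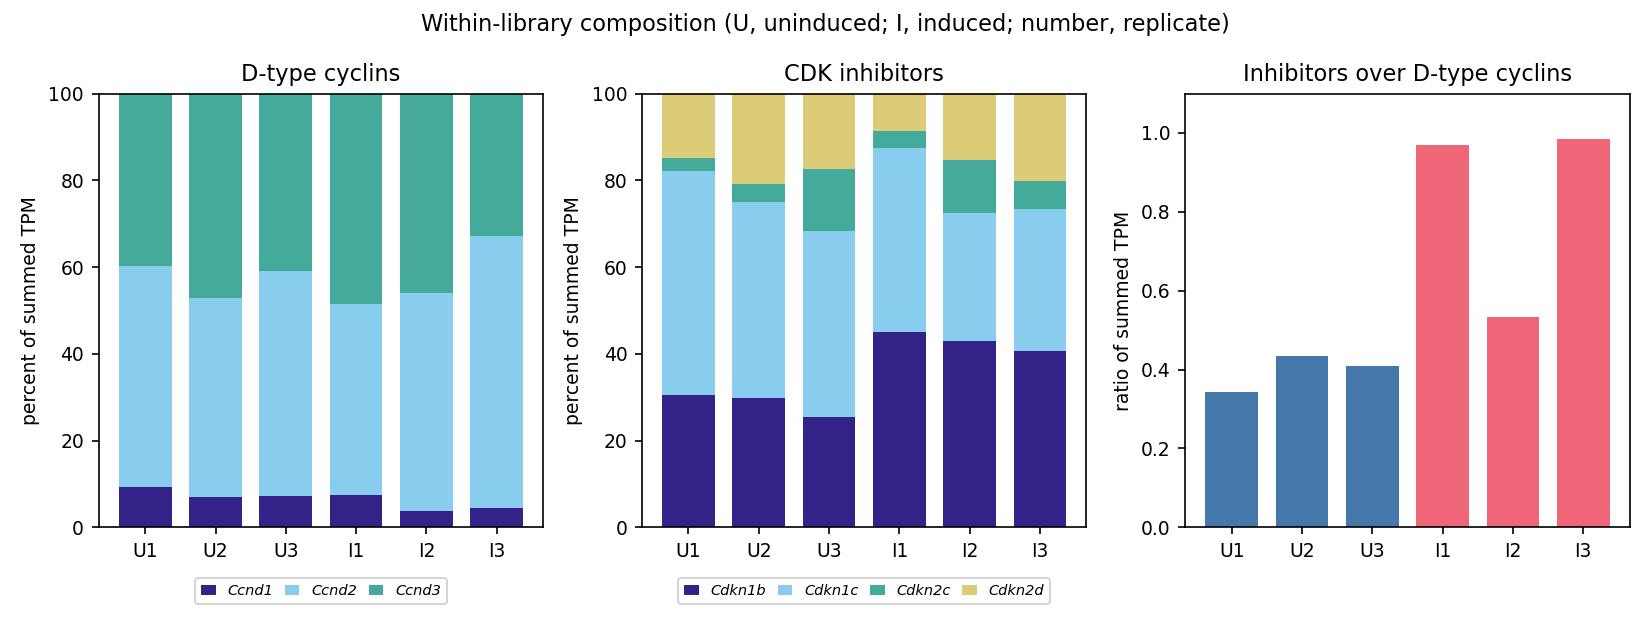
Percent of summed TPM taken by each D-type cyclin (left) and each inhibitor (middle), and the ratio of summed inhibitor to summed D-type cyclin TPM (right), in uninduced (U) and induced (I) libraries numbered by replicate. The cyclin shares overlap between groups, Cdkn1b takes 25.5% to 30.4% of the inhibitor sum in uninduced and 40.5% to 45.1% in induced libraries, and the ratio is 0.343 to 0.434 against 0.533 to 0.985.

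In the GENCODE M21 annotation 6 of the 10 genes overlap a gene on the opposite strand, the 4 called genes and also Cdk6 and Cdkn1c, which were not called. Those of Ccnd2, Gm43126 and 9330179D12Rik, were listed at 0 to 0.663 TPM. Those of Cdk6, Gm17590 and Gm42435, were listed at 0 to 0.744 TPM, and that of Cdkn1c, Gm44732, at 0 to 0.623 TPM. LTO1 overlaps 818 bases of a Ccnd1 transcript and was at 18.3, 21.1 and 11.7 TPM in uninduced and 8.40, 9.80 and 14.1 TPM in induced libraries. Bysl overlaps 361 bases of a Ccnd3 transcript and was at 10, 10.5 and 4.85 TPM and then 2.36, 2.58 and 2.88 TPM, lower in every induced library as Ccnd3 was. Tspan31 overlaps 641 bases of a Cdk4 transcript and was at 19.3, 15.7 and 13.1 TPM and then 11.6, 13.9 and 13.3 TPM, with overlapping groups. The library kit keeps strand per the labels, but whether the counting used it is not given in the sources used here. The processed pseudogene Ccnd3-ps matches Ccnd3 over 881 bases at 96.3% identity and reached 0.342 TPM at most, against at least 21.7 TPM for Ccnd3.

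Other genes of G1 control were described from a list of 22 genes, of which 20 were tested. Of these 4 were called lower (Cks1b, Ccne1, Rbl2 and Skp1a) and 0 higher, beside 10.2% and 1.29% of all tested genes. An unadjusted p under 0.05 was found for 9 of them, beside 27.9% of all tested genes, and for 4 after median-of-ratios scaling, beside 21.8%. The list's median change was -0.53, beside -0.35 for all tested genes, and -0.15 after median-of-ratios scaling, beside 0.003. Cks1b, the cofactor with which SKP2 binds p27, fell from 36.1, 18.3 and 20.8 TPM to 11.1, 1.33 and 4.97 TPM (log2 change -2.18, SE 0.53, limma adjusted p 0.0287). Ccne1, the cyclin that activates CDK2 after CDK4 and CDK6 have acted, fell from 5.28, 6.06 and 3.42 TPM to 0.492, 0.457 and 0 TPM (log2 change -2.16, SE 0.42, limma adjusted p 0.0121). Both genes were lower in every induced library. After median-of-ratios scaling Ccne1 was the 1 gene of the 20 still called, where 3.1% of all tested genes were called lower (-1.92, limma adjusted p 0.0256), Cks1b was at -1.83 (adjusted p 0.0876) and Skp1a at -0.17 (adjusted p 0.423).

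The pocket proteins, on which the D-type cyclin kinases act, were each lower in mean, with overlapping intervals of change. Rbl2, which encodes p130, the pocket protein of resting cells, was at 46.6, 47.5 and 60.8 TPM in uninduced and 28.7, 32.3 and 30.2 TPM in induced libraries. It fell by 0.74 on the log2 scale (SE 0.19, limma adjusted p 0.038), but by 0.34 after median-of-ratios scaling, where the call was lost (adjusted p 0.392). Rbl1, which encodes p107, itself an E2F target, was at 15.8, 23.6 and 17.9 TPM and then 6.77, 7.55 and 12.5 TPM, and did not pass (log2 change -1.04, SE 0.30, limma adjusted p 0.0505). After median-of-ratios scaling its change was -0.66 (limma adjusted p 0.194). Rb1 was at 5.47, 5.20 and 6.34 TPM and then 5.05, 3.78 and 4.59 TPM, a log2 change of -0.29 (limma adjusted p 0.584) that became 0.05 after median-of-ratios scaling. Cdkn1a, which encodes p21, the p53-induced Cip/Kip inhibitor, was at 1.02, 5.35 and 2.05 TPM and then 2.93, 1.47 and 4.63 TPM, with overlapping groups (log2 change 0.16, limma adjusted p 0.868, and 0.44 after median-of-ratios scaling).

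Targets of E2F, which the pocket proteins hold back, were lower together. Of 20 listed genes, all tested, 17 were called lower and 0 higher, beside 10.2% and 1.29% of all tested genes, and 19 were lower in every induced library, beside 28.2%. The list's median change was -1.89 on the deposited scale and -1.54 after median-of-ratios scaling, where 13 of 20 were called lower, beside 3.1% of all tested genes. Mybl2, a transcription factor of dividing cells, fell from 11.8, 13.2 and 6.57 TPM to 0, 0.116 and 1.77 TPM (log2 change -2.93, SE 0.48, limma adjusted p 0.00606). Tk1, a thymidine kinase of S phase, fell from 22.1, 23.6 and 20.4 TPM to 0.744, 3.71 and 2.45 TPM (log2 change -2.91, SE 0.38, limma adjusted p 0.00263). Mcm5, a subunit of the replicative helicase, fell from 49.4, 60.0 and 58.3 TPM to 7.75, 6.25 and 9.27 TPM (log2 change -2.71, SE 0.23, limma adjusted p 0.00031). The summed TPM of the proliferation markers Mki67 and Top2a was 105.6 to 118.2 in uninduced and 12.7 to 18.3 in induced libraries, and its part in the lower cyclin and Cdk4 levels was not tested.

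Genes known to act on the inhibitors, cyclins and kinases moved in both directions. Of 20 listed, 5 were called lower (Mycn, Ezh2, Myc, Trp53 and Ndn) and 2 higher (Gfi1 and Txnip), beside 10.2% and 1.29% of all tested genes. After median-of-ratios scaling 4 were called lower and 3 higher, beside 3.1% and 2.88% of all tested genes, with Ndn lost (adjusted p 0.0662) and Cbx7 gained (adjusted p 0.0465). Mycn fell from 120.5, 160.2 and 137.9 TPM to 8.38, 13.8 and 14.4 TPM (log2 change -3.44, SE 0.24, limma adjusted p 0.000123). Myc fell from 52.4, 74.7 and 52.1 TPM to 15.4, 18.0 and 31.8 TPM (log2 change -1.46, SE 0.28, limma adjusted p 0.012). Both encode MYC factors. Whether either is bound at the Cdk4 promoter, or has a part in the lower Cdk4 level, was not tested.

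Ezh2, the Polycomb methyltransferase known for silencing Cdkn2a, fell from 60.0, 44.3 and 41.2 TPM to 13.6, 15.3 and 21.2 TPM (log2 change -1.49, SE 0.24, limma adjusted p 0.00576), while Cdkn2a was listed at 0 throughout. Gfi1, a zinc finger repressor known for restraining stem cell proliferation, rose from 3.88, 3.46 and 2.16 TPM to 12.5, 13.6 and 12.5 TPM (log2 change 1.76, SE 0.30, limma adjusted p 0.00709). Txnip, a thioredoxin-binding protein known to stabilise p27, rose from 351.7, 276.3 and 217.1 TPM to 630.6, 604.1 and 655.7 TPM (log2 change 1.19, SE 0.18, limma adjusted p 0.00433). The groups were apart for each of these 3 genes, and each was also called after median-of-ratios scaling. The FoxO factors, known to act on Cdkn1b and Ccnd2, did not pass: the log2 changes were 0.46 for Foxo1, -0.43 for Foxo3 and 0.24 for Foxo4, with limma adjusted p of 0.475, 0.337 and 0.618. After median-of-ratios scaling they were 0.77, -0.03 and 0.62, with limma adjusted p of 0.242, 0.959 and 0.23.

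**Figure D4:**
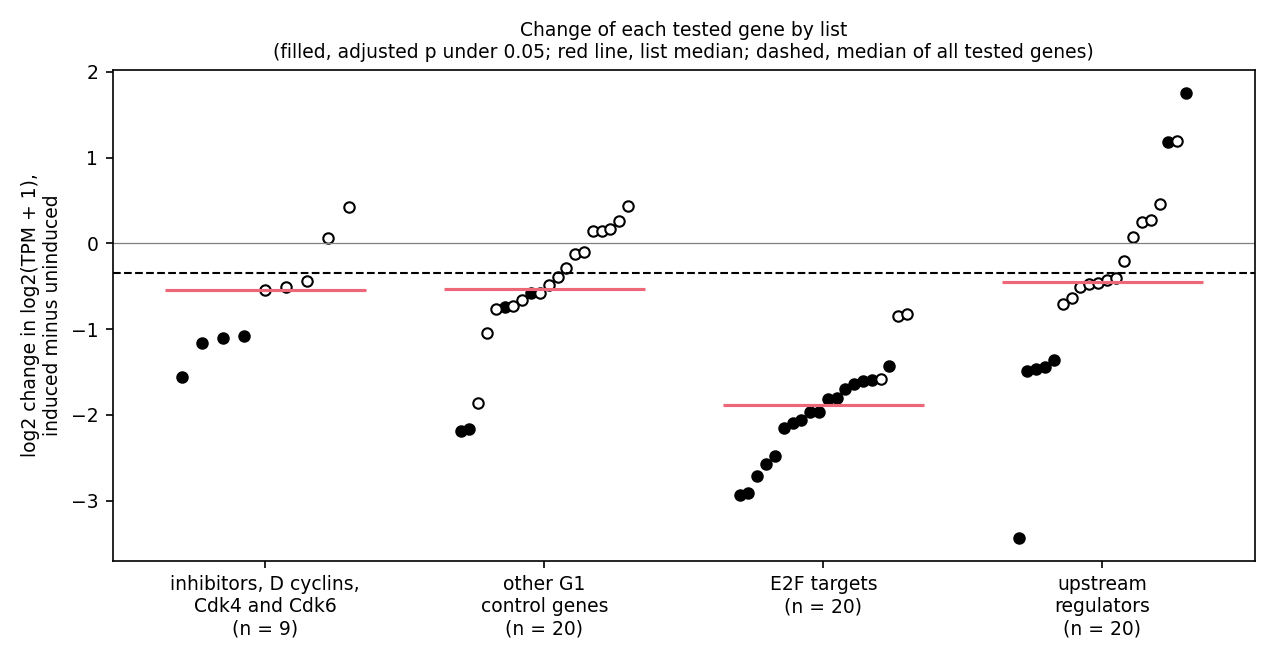
Log2 change (y axis, induced minus uninduced, deposited scale) of each tested inhibitor, D-type cyclin and kinase and of the genes of 3 related lists; filled points passed an adjusted p of 0.05, red lines are list medians and the dashed line is the median of all tested genes, -0.35. The E2F targets lie lowest, with a median of -1.89, and the upstream regulators spread from -3.44 to 1.76.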

How the data were processed

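The table of TPM values was deposited by the authors with a column per library, and per the submitters' processing notes HISAT2, StringTie and the build GRCm38 were used, with no versions. The annotation release is not given in the sources used here. TPM keeps no depth, so the depth of each library is unknown and no counting interval or detection limit is given. The table also deposited a GC content in percent per gene, used as a description. Rows were summed per gene ID (60496 rows, 55471 IDs, none of the listed genes with more than 1 row).

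Tests used limma 3.58.1 in R 4.3.3 on log2(TPM + 1), with a variance trend, two-sided, over the 13470 genes that averaged 1 TPM or more, adjusted by the Benjamini-Hochberg method over all of them. Fold changes on this scale understate those of low genes. The step was tested on simulated data. Groups and replicate numbers came from the library titles. Nothing says whether libraries came from separate mice, so p-values measure only the spread between these libraries. The genes and lists were chosen with earlier results of these data known. Genes named from the lists are those past the threshold with the 3 largest changes in each direction, and the other inhibitors and pocket proteins. One gene with a pattern like that of Ccnd2 is not reported here. Named outside this rule, after their values were seen, were Skp1a, Skp2, Trp53, Ndn, Cbx7, Foxo1, Foxo3, Foxo4 and Gm23935. Gene positions and overlaps are from GENCODE M21 (GRCm38), and copies are blastn 2.17.0 matches of at least 200 bases at 90% identity or more.

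Alternatives changed the pseudocount (0.1 or 5), the filter (none, or an average of 5 TPM), the scaling (median of ratios, nuclear protein-coding genes, quantiles) and the model (without the trend, with array weights, with replicate number as block), kept the highest row per gene ID, or dropped each library in turn.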

Additional observations from a re-analysis of the deposited data

How the results depend on the processing

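Ccnd2 and Cdk4 were called lower under all 17 alternatives, with limma adjusted p of 0.00403 to 0.0389 and 0.00424 to 0.0409. Cdkn1b, Cdkn1c, Cdkn2d and Cdk6 kept their direction and did not pass under any, but leaving out 1 library moved Cdkn1b from 0.43 to 0.25 (uninduced 3), 0.16 (induced 1) or 0.68 (induced 2), Cdkn1c from -0.55 to -0.91 (induced 1) or -0.18 (induced 2), and Cdkn2d from -0.44 to -0.17 (uninduced 2), -0.26 (induced 2) or -0.71 (induced 3). The 4 called genes became 2, Ccnd2 and Cdk4, without the expression filter, with median-of-ratios or protein-coding scaling and with quantile normalization. Dropping 1 library left 2 to 4 of them. In these 4 settings Ccnd1 was at -1.55, -1.20, -1.30 and -1.21 (limma adjusted p 0.0782, 0.0765, 0.0655 and 0.075) and Ccnd3 at -1.16, -0.76, -0.75 and -0.79 (adjusted p 0.0985, 0.14, 0.113 and 0.127). Ccnd3 was also lost without the variance trend (-1.16, adjusted p 0.08). Dropping 1 library gave Ccnd1 -1.86 to -1.39 and Ccnd3 -1.35 to -0.89. Cdkn2c reversed to -0.005 with a pseudocount of 5 and took values between -0.34 and 0.51 on dropping 1 library. The 1549 genes called (174 higher, 1375 lower) became 752 (96 and 656) with no filter, 806 (388 and 418) after median-of-ratios scaling, 886 (435 and 451) after protein-coding rescaling, 814 (374 and 440) under quantile normalization, 767 (108 and 659) without the trend. Dropping 1 library gave 573 to 1198 genes, and each such count was more than 1.5 times below 1549 except the 1198 without uninduced replicate 3. The 4 called genes of the G1 control list became 2 without the filter, 1 under each of the 3 scalings and without the trend, and 1 to 3 on dropping 1 library. The 3 scalings bring the median change of all genes to between -0.005 and 0.025. Why the counts changed was not tested for any setting. The differences in shares and in the ratio of inhibitors to cyclins moved by less than the larger of the 2 groups' SDs under their 7 alternatives, although those of Ccnd2, Ccnd3 and Cdkn2c changed sign (from -2.30 to 6.87, -3.20 to 4.55 and -1.95 to 3.97 percentage points).

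With the replicate block 902 genes passed (120 higher, 782 lower), with the same 4 called genes among the cyclins and Cdk4 (limma adjusted p 0.0237 to 0.0304) and 2 of the G1 control list. Same-numbered libraries share only a number: their deviations from the group means correlated at 0.0215, -0.0152 and 0.0172, and 3 of 6 libraries correlated best with their own number. Cdkn2a has no fitted value, and Cdkn2c has none at a mean of at least 5 TPM. Depth is unknown, so it sets no limit that can be stated for the low genes.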

Other observations

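Genes with the pattern most like that of the most abundant inhibitor, cyclin and kinase were found over 6275 genes that averaged 10 TPM or more, by the root-mean-square difference of mean-centred log2(TPM + 1) values over the 6 libraries. Among the closest to Ccnd2 were Sf3a1 (0.041), a splicing factor subunit, and Hsp90ab1 (0.070), a cytosolic chaperone, where the median gene differed by 0.462. Sf3a1 was at 50.2, 50.1 and 41.4 TPM in uninduced and 21.0, 23.1 and 21.6 TPM in induced libraries. Closest to Cdk4 were B230219D22Rik (0.031), Odc1 (0.065), the ornithine decarboxylase of polyamine synthesis, and Pabpc1 (0.068), a poly(A)-binding protein, where the median gene differed by 0.491. Closest to Cdkn1c were Pqlc1 (0.108), Zcchc7 (0.111) and the pseudogene Mpc1-ps (0.118), where the median gene differed by 0.529. The matches to Cdkn1c follow its spread within the induced group: Zcchc7 was at 36.3, 13.1 and 20.7 TPM there, beside 35.9, 12.4 and 21.3 TPM for Cdkn1c.

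Within the induced group Cdkn1b and Cdkn1c had the same order of libraries, highest in replicate 1 and lowest in replicate 2, and within the uninduced group both were highest in replicate 2 and lowest in replicate 3. Cdk6 was the other way round in induced cells, with its highest value (29.8 TPM) in replicate 2 and its lowest (17.4 TPM) in replicate 1. With 3 libraries a group these orders are values only.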
